A study of Mus musculus with 2 samples.

Results

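Circular RNAs (circRNAs) of the Zfp zinc finger genes were taken as all circRNAs whose host gene symbol is Zfp followed by a digit. They were 347 of 31496 listed circRNAs, from 127 of 8174 host genes. The mice were of the strain Lgr5GFP-CreERT2, in which the promoter of Lgr5, a Wnt target of crypt base stem cells, drives a green reporter and an inducible Cre. At an age of 2 months, intestinal cells were sorted into an Lgr5+ fraction, labelled ISC, and an Lgr5- fraction, labelled non-ISC, and both fractions carried that allele. With 1 library per group there is no replicate check of any difference below, and p-values are left out. The number of mice behind each library is not stated in the sources used here.

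A circRNA forms when splicing joins a donor backwards to an acceptor that lies before it, and reads over that back-splice junction count it. Most Zfp genes encode proteins with Cys2-His2 zinc fingers, short folds held by a zinc ion that read DNA or, in some members, RNA. Many members carry a KRAB domain at the amino end, which recruits a corepressor to silence retroelements and imprinted loci, and their finger array is commonly encoded by 1 long last exon. Other members, among them Zfp148, Zfp827 and Zfp644, spread their fingers over several exons.

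The library labelled ISC held 156582 junction reads and its counterpart 76331, so that a count of 0 allows up to 19.2 and 39.3 reads per 1000000 junction reads (3 counts). Marker circRNAs went against the labels. In the library labelled ISC, 4 of 5 testable crypt stem cell hosts (of 17 listed genes) and 9 of 9 epithelial hosts (of 13) were lower, with summed ratios of 0.0870 and 0.00511. There, 10 of 10 testable lymphocyte hosts (of 20) were higher, with a summed ratio of 26.6. Epithelial hosts had 6 reads there against 572, and Lgr5 had 0 against 7. The groups are therefore named by their labels, and directions are between the libraries as labelled. The part of this difference in the Zfp results was not tested. In bulk libraries, fewer cells of a type and less RNA per cell cannot be told apart.

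The back-splice junctions of the most abundant Zfp circRNAs are shown first, because each is the only sequence that separates a circle from its linear transcript. The last 15 bases before the donor end are in lower case and the first 15 bases after the acceptor end are in capitals, as given by GENCODE release M21 transcripts on GRCm38.
Zfp148 exons 2 to 4, chr16:33421321-33434974, plus strand: gcactcaatgtccctGATAGAAGAGAAGAA
Zfp827 exons 6 to 8, chr8:79118175-79136663, plus strand: gagtgtctgctccagCGGAAAGCTACAAGG
Zfp827 exons 6 to 7, chr8:79118175-79120540, plus strand: gcggacaaccaccagCGGAAAGCTACAAGG
Zfp292 exons 2 to 4, chr4:34839332-34839986, minus strand: tggataaagagaaagACACTTCTTGAATAT
Zfp644, donor inside the last exon, chr5:106618071-106619642, minus strand: acttcagacaagacaCCATAGATTGTAAGC
Zfp426 exons 5 to 7, chr9:20473028-20476478, minus strand: agatagttttcccagGTCCTTCAGAGGACT
Zfp512 exons 4 to 7, chr5:31466232-31468240, plus strand: aatcataatagtctgGCGCAGGTGAAAAGG
Zfp609 exon 2 alone, chr9:65794622-65795495, minus strand: gtcaagtctgaaaagCAATGATGTTGTCCA
The Zfp827 circles share the acceptor side of their junction, at the start of exon 6, and differ on the donor side.

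Zfp host genes held 2461 junction reads in the library labelled ISC, 1.57% of its total (1.51 to 1.63, exact binomial 95% interval), and 1424 in the library labelled non-ISC, 1.87% (1.77 to 1.96). These intervals, and all intervals below, cover counting error only. The reads were concentrated in a few hosts. The 4 hosts with the most reads held 57.3% and 79.1% of the Zfp reads of the respective libraries. Zfp148 led the library labelled ISC with 24.3%, and Zfp827 led the library labelled non-ISC with 43.4%. Of the 127 hosts, 30 had at least 10 reads over both libraries, 81 had 1 to 9, and 16 had listed entries with 0 junction reads only. Chromosome 7 carried the most hosts, 23 of 127, followed by chromosome 17 with 13, chromosome 9 with 12 and chromosome 5 with 11.

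**Figure D1:**
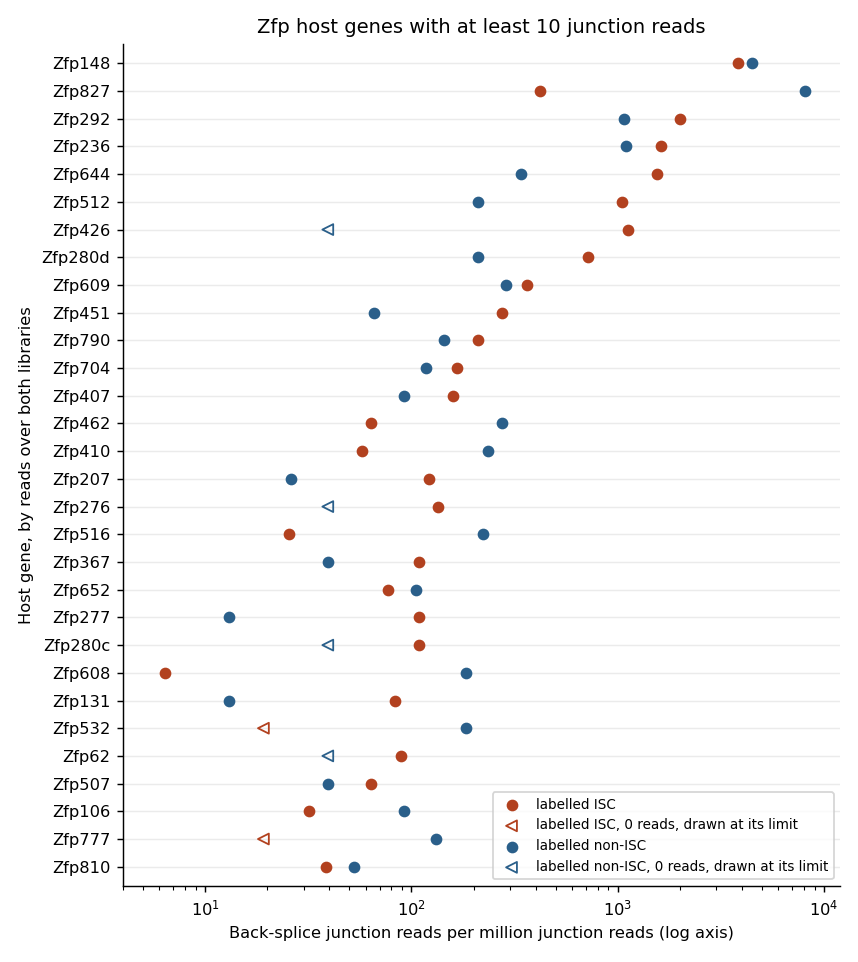
Junction reads per 1000000 junction reads (log axis) of the 30 Zfp host genes with at least 10 reads over both libraries, 1 point per library; open triangles stand for 0 reads and are drawn at the limit that a count of 0 allows. Zfp148 is high in both libraries, at 3819 and 4480 reads, while Zfp827 lies at 422 against 8096.

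The comparison asked which hosts differ between the sorted fractions. Each ratio divides a host's share of junction reads under the label ISC by its share under the label non-ISC, with an exact conditional 95% interval. A host was called when it had 10 or more reads over both libraries, differed 2-fold or more either way and had an interval that left out 1. Of the 30 testable Zfp hosts, 10 were higher (33.3%, against 26.7% of all 2920 testable hosts) and 7 were lower (23.3%, against 22.7%), while 13 passed in neither direction. Shares this near to the background say nothing particular about the family. The median log2 ratio of the 30 was 0.55, against 0.16 over all testable hosts, on a scale with 0.5 reads added. Scaling by library totals, read back from the deposited RPM values, multiplies every ratio by 2.82, a shift of 1.49 on the log2 scale. The summed ratio over all Zfp hosts was 0.842 (0.789 to 0.90), and it turned to 2.37 with library totals, to 1.04 with median-ratio scaling and to 1.45 (1.34 to 1.57) without Zfp827, so its direction depended on the scaling and on 1 host.

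**Figure D2:**
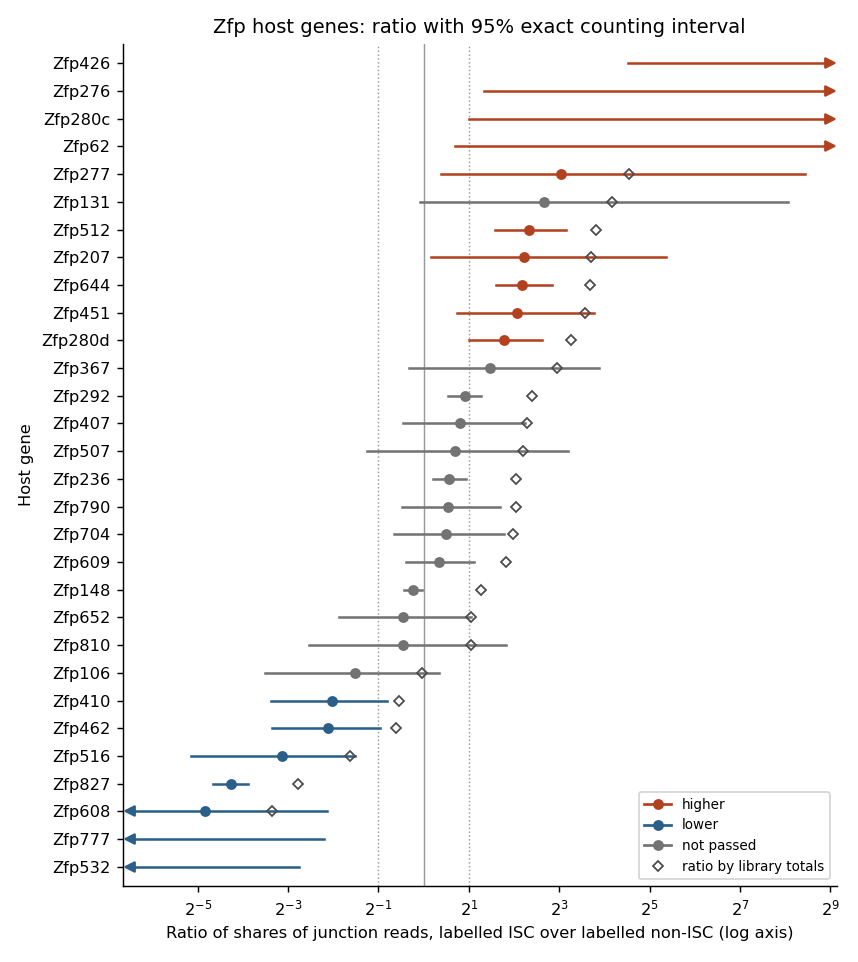
Ratio of the share of junction reads under the label ISC to that under the label non-ISC (log axis) for the 30 Zfp host genes, with 95% exact counting intervals; arrows mark intervals that run beyond the axis or have no end, dotted lines a ratio of 2 in either direction, and open diamonds the ratio by library totals. Of the 30, 10 are higher, 7 are lower and 13 did not pass.

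Zfp148 encodes a Krüppel-type factor that binds GC-rich promoters, and it was the most abundant Zfp host. In the library labelled ISC it had 598 reads and in the other 342, a ratio of 0.852 (0.745 to 0.976) that did not reach a difference of 2. By library totals the ratio was 2.40, the opposite direction. One circle carried most of these reads in both libraries. The circRNA of exons 2 to 4, of 567 spliced nt with the start codon, had 525 against 301 reads. It made up 87.8% (84.9 to 90.3) and 88.0% (84.1 to 91.3) of the host's reads, shares that differ by less than their intervals. Next were exons 5 to 7 with 32 against 23 reads and exons 2 to 7 with 23 against 11. The last of these spans 46863 nt of the genome, the longest among Zfp circRNAs with at least 10 reads, followed by Zfp827 exons 5 to 8 (44831 nt) and Zfp407 exons 5 to 8 (38886 nt, 6 against 5 reads).

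Zfp827, whose human counterpart is known for recruiting a chromatin remodelling complex to telomeres, stood lowest in the library labelled ISC among hosts with over 100 reads. Its reads numbered 66 against 618, a ratio of 0.0521 (0.0398 to 0.0672). Its exons 6 to 8 circle, of 402 spliced nt, had 430 reads under the label non-ISC and no entry under the label ISC. A missing entry need not be 0 reads, so no fold is given for it. Over Zfp827 circRNAs with reads in both libraries the host had 66 against 166 reads, and the ratio was 0.194 (0.143 to 0.259), nearer to 1 but still lower. The exons 6 to 7 circle had 35 against 90 reads, a ratio of 0.190 (0.125 to 0.283). Exons 5 to 8 gave 16 against 41 reads, and exons 3 to 4 gave 7 against 10. Every Zfp827 circRNA with at least 10 reads, 6 in all, was lower. The exons 6 to 8 circle held 69.6% (65.8 to 73.2) of the host's reads in the library labelled non-ISC. In the other library the exons 6 to 7 circle led with 53.0% (40.3 to 65.4).

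Zfp236, a gene of 31 exons in its mapped transcript, had the most circRNAs of any Zfp host: 25 listed, of which 20 had reads under the label ISC and 15 under the other. Its reads were 254 against 84, and the ratio was 1.47 (1.15 to 1.91), which did not pass, or 4.15 by library totals. No single circle dominated. The circle of exons 2 to 6 had 69 against 10 reads, a ratio of 3.36 (1.72 to 7.32), and exons 2 to 7 had 59 against 26, a ratio of 1.11 (0.686 to 1.83). The leading circle therefore differed, exons 2 to 6 making 27.2% (21.8 to 33.1) of the host's reads for the label ISC and 11.9% (5.86 to 20.8) for the label non-ISC. For the label ISC, exons 2 to 7 made 23.2% (18.2 to 28.9), an interval that overlaps that of the leader. Of its 14 circles that fit this transcript, 7 began at exon 2, and a separate pair began at exon 20. These were exons 20 to 24, with 6 against 0 reads, and exons 20 to 23, with 2 against 4.

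A minimum of 20 reads per library was met by 6 Zfp hosts. Of these, 4 were led by the same circRNA in both, and the leader differed in Zfp827 and Zfp236. In Zfp236 the first 2 circles had 69 against 59 reads under the label ISC, with overlapping intervals. With a minimum of 10 reads, 6 of 10 had the same leader. Zfp280d and Zfp462 then joined the hosts whose leaders differ, but on few reads. The first 2 circles had 7 against 4 reads in Zfp280d under the label non-ISC and 6 against 4 in Zfp462 under the label ISC, and their intervals overlapped.

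**Figure D3:**
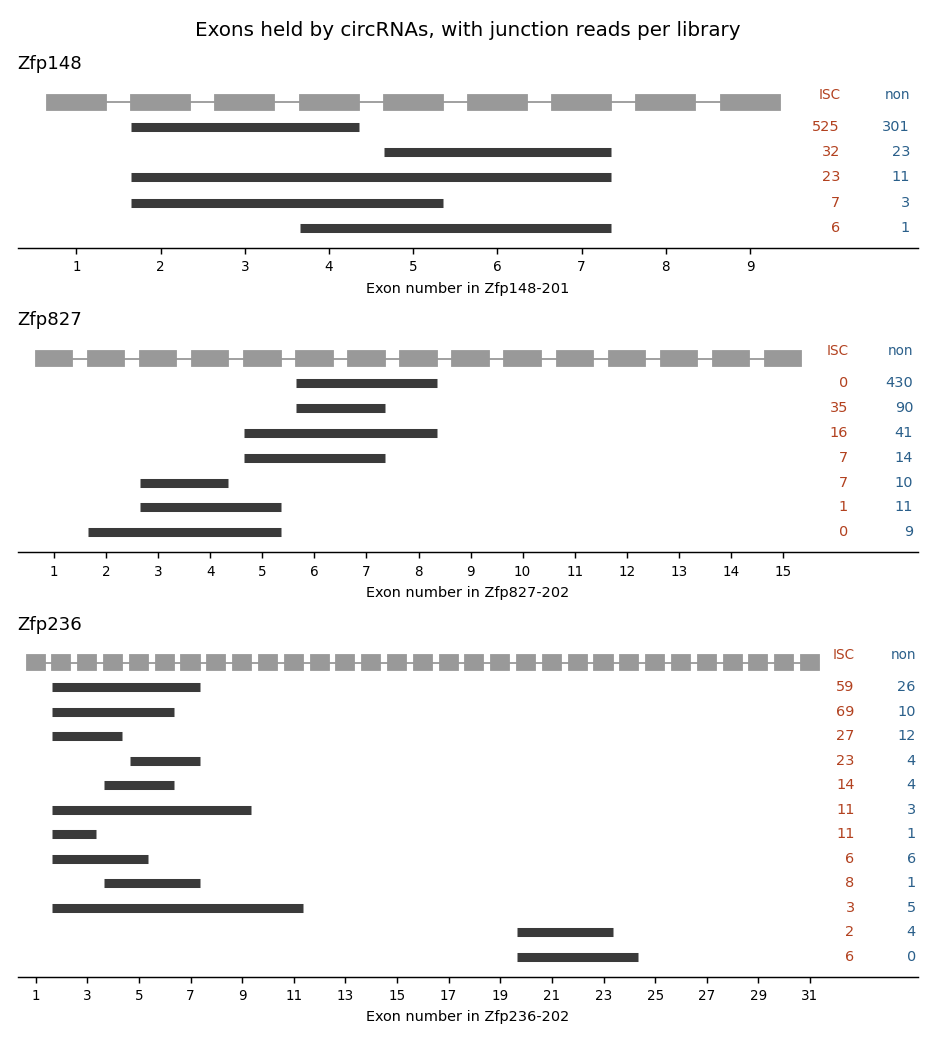
Exons (grey boxes, equal widths, numbered along the transcript) of Zfp148, Zfp827 and Zfp236, with the exons held by each circRNA of at least 5 reads over both libraries (dark bars) and its junction reads in the libraries labelled ISC (left number) and non-ISC (right number). Zfp148 has 1 circle far above the rest, Zfp827 has its leading circle with reads only under the label non-ISC (430, no entry under ISC), and Zfp236 spreads its reads over 12 circles, 7 of which begin at exon 2.

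Of the hosts that were higher in the library labelled ISC, Zfp644, whose human counterpart binds the histone methyltransferases EHMT1 and EHMT2, had 243 reads against 26, a ratio of 4.56 (3.03 to 7.12). Zfp512 had 164 against 16, a ratio of 5.0 (2.99 to 8.95). Its exons 4 to 7 circle alone had 145 against 14, and exons 4 to 10 had 16 reads and no entry in the other library. Both hosts were also higher over the circRNAs with reads in both libraries, at 5.34 and 5.05.

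Zfp426 had 175 reads in the library labelled ISC, 174 of them on the circle of exons 5 to 7, and no entry in the other. Against the limit of 3 counts its host share was 28.4-fold higher, and the lower end of its interval was 22.9. Both hold with the limit that a missing entry need not be 0 reads. Zfp280d, related by name to the Drosophila suppressor of Hairy wing, had 112 reads against 16 on 19 listed circRNAs, a ratio of 3.41 (2.01 to 6.18). Its exons 7 to 9 circle had 42 against 4 reads, its exons 2 to 6 circle had 19 against 0, and exons 8 to 9 had 9 against 7. Zfp451, known in human as a SUMO ligase, had 43 against 5, a ratio of 4.19 (1.66 to 13.6). This call was lost over circRNAs with reads in both libraries, where 20 against 4 reads gave 2.44 (0.816 to 9.81).

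The remaining higher hosts had 21 reads or fewer. Zfp207, whose human counterpart binds the checkpoint protein BUB3 at kinetochores, had 19 reads against 2. Zfp277, which is known to act with Polycomb proteins in mouse fibroblasts, had 17 against 1, a ratio of 8.29 (1.30 to 346). When circRNAs seen in a single library were left out, the ratio was 6.34 (0.952 to 269), no longer called. Zfp276 had 21 against 0, Zfp280c 17 against 0 and Zfp62 14 against 0. Against the limit of 3 counts this is 3.41-fold, 2.76-fold and 2.27-fold higher, with lower interval ends of 2.54, 2.01 and 1.62. By the deposited count column in place of junction reads, Zfp207, Zfp276 and Zfp62 lay on the other side of 1, at 0.0798, 0.784 and 0.831. These and all later count-column ratios keep the junction-read totals as their scale, so they are not ratios of count shares. Zfp207, Zfp277, Zfp280c and Zfp62 were not called with the junction reads halved.

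Apart from Zfp827, the 6 lower hosts had few reads. Zfp462, a large protein that binds Ehmt1 in mouse embryonic stem cells, had 10 reads against 21, a ratio of 0.232 (0.0976 to 0.515). Its exons 6 to 8 circle had 4 against 19. Zfp410, known as an activator of the remodeller gene Chd4, had 9 against 18, a ratio of 0.244 (0.0965 to 0.571). By library totals neither host was called, at 0.654 and 0.687. By the count column over junction-read totals Zfp410 was at 1.5, on a side of 1 that depends on this scale. The Zfp410 circle of exons 2 to 3 had 1 read against 13.

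Zfp516, a regulator of thermogenic genes in mouse brown fat, had 4 against 17, with 2 against 10 on its exon 3 circle, and Zfp608, a paralogue of Zfp609, had 1 against 14. Zfp532, known in human as a fusion partner of NUTM1 in carcinoma, had 0 against 14, and Zfp777 had 0 against 10. Against the limit of 3 counts these last ones are 9.57-fold and 6.84-fold lower in the library labelled ISC. The upper ends of their ratio intervals were 0.147 and 0.217. The shortest Zfp circRNA with at least 10 reads was Zfp608 exon 3 alone, of 256 nt, with 1 read against 9, followed by Zfp292 exons 2 to 4 and Zfp280d exons 8 to 9 (683 nt). With the junction reads halved, Zfp608, Zfp532 and Zfp777 fell below the minimum of 10 reads and could not be called. Their intervals still left out 1, with upper ends of 0.467, 0.294 and 0.426.

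Of the hosts that did not pass, Zfp292 and Zfp609 have counterparts known for their circRNAs. In human, ZNF292 gives a circRNA described in endothelial cells, and ZNF609 one described in myoblasts that holds the start codon. Zfp292 had 315 reads against 82, a ratio of 1.87 (1.46 to 2.42), just below 2. It was 2.30 with median-ratio scaling and 5.27 by library totals, but 0.669 (0.577 to 0.776), the opposite direction, by the count column. Its exons 2 to 4 circle, spanning 655 nt, did pass, with 276 against 58 reads and a ratio of 2.32 (1.74 to 3.13). A pair of longer Zfp292 circles share its start but end upstream at positions 3 nt apart (chr4:34839332-34848032 and chr4:34839332-34848035), with 16 against 3 and 14 against 14 reads. Neither of those upstream ends is an annotated exon end.

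Zfp609 gave almost only 1 circle, exon 2 alone, of 874 nt with the start codon. That circle had 54 reads against 22 and a ratio of 1.20 (0.717 to 2.06), an interval that includes 1. The host had 57 against 22, a ratio of 1.26 (0.760 to 2.17). By library totals it was 3.56 (2.14 to 6.11) and by the count column 0.190 (0.141 to 0.254), so its direction depended on the measure. Zfp790 had 33 against 11 and Zfp704 had 26 against 9. Zfp407 had 25 against 7 and Zfp367 had 17 against 3. Zfp131 had 13 against 1, Zfp652 12 against 8 and Zfp507 10 against 3. Zfp106 had 5 against 7 and Zfp810 6 against 4. The intervals of these hosts included 1.

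Of 47 Zfp circRNAs with at least 10 reads, 13 were higher (27.7%, against 32.4% of all 3659 testable circRNAs), 10 were lower (21.3%, against 23.0%) and 24 passed in neither direction. Reads in both libraries were found for 38 of the 47 (80.9%, 66.7 to 90.9), against 69.5% over all circRNAs of that depth. Over all Zfp circRNAs with any read the share was 18.5% (55 of 297), against 16.7%. Most were thin: 1 or 2 reads were all that 57.0% and 56.5% of Zfp circRNAs had in the respective libraries, close to 54.5% and 57.3% of other circRNAs.

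Among the lists by function, which leave out Zfp292, Zfp236 and Zfp426, the transcription and chromatin factors without a KRAB box held the most reads. Of 29 listed genes, 19 had reads and 13 were testable, with 2 higher (Zfp644 and Zfp451), 5 lower (Zfp827, Zfp462, Zfp410, Zfp516 and Zfp532) and 6 that did not pass. Over all testable hosts, 26.7% were higher and 22.7% lower, and with 13 hosts no difference from these shares is read. The summed reads of this list were 1105 against 1110, a ratio of 0.485 (0.446 to 0.528), which became 1.03 (0.924 to 1.15) without Zfp827 and 1.37 by library totals. Of 12 RNA-binding, mRNA decay or ribosome factors, 7 had reads and 2 were testable, Zfp207 (higher) and Zfp106 (not passed). Zfp36l2, which promotes decay of AU-rich mRNAs, had 6 reads against 0, and Zfp598, a ligase that marks collided ribosomes, had 0 against 4. Of 12 KRAB factors known for retroelement or imprint silencing, 5 had reads and none reached 10. Zfp57, which maintains imprints, had 4 against 0, and Zfp445, which does so too, had 3 against 3. The Zfp36l2 and Zfp57 reads were all on circles inside the last exon. On the strand of the host gene, the ends of these circles lacked GT after the donor, AG before the acceptor or both. The opposite strand was not scored.

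The family was also grouped by where the fingers are encoded. Fingers were found by their cysteine and histidine spacing in the translated coding sequence of GENCODE transcripts. Genes with any finger outside the last exon form the class called here fingers in several exons. That class also takes in genes with only 1 finger, such as Zfp609 and Zfp704. Of annotated Zfp genes with fingers in several exons, 24 of 80 (30%, 20.3 to 41.3) gave a host with at least 10 reads. Of those with all fingers in the last exon it was 6 of 294 (2.04%, 0.753 to 4.39). The former have a median of 8 exons and 5 fingers, the latter of 4 exons and 11 fingers. Finger place and exon number thus cannot be told apart here, and the cause of the difference was not tested. Over all protein-coding genes the share with at least 10 reads was 12.4%.

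Calls were 8 higher and 6 lower of 24 testable hosts with fingers in several exons, and 2 higher and 1 lower of 6 with all fingers in the last exon. Over all 2920 testable hosts, 26.7% were higher and 22.7% lower, so these calls say nothing particular about either class. Hosts with fingers in several exons had 1794 reads against 1273, a summed ratio of 0.687 (0.639 to 0.739) that turned to 1.29 (1.17 to 1.41) without Zfp827 and to 1.93 by library totals. Hosts with all fingers in the last exon had 661 against 148, a ratio of 2.18 (1.82 to 2.62). That ratio was 1.60 (1.33 to 1.94) without Zfp426, an interval that overlaps that of several-exon hosts without Zfp827, and 2.56 without Zfp292. The sums of both classes thus rest on single hosts.

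Circles with both ends on exon ends of 1 transcript, called exonic here, held a whole finger in 64 of 101 (labelled ISC) and 43 of 68 (labelled non-ISC) circRNAs of several-exon hosts. In last-exon hosts it was 1 of 25 and 1 of 16, but a last exon has no annotated donor, so the definition of an exonic circle fixes this low number and it is no result. In reads, circles with a whole finger made up 44.5% and 19.7% of the exonic reads of several-exon hosts, the label ISC first. Without the Zfp827 circle of exons 6 to 8, the second share was 30.6%. In last-exon hosts, 483 of 531 and 67 of 100 exonic reads were on circles with neither a finger nor the start codon. The Zfp292 and Zfp426 leaders gave nearly all of these, and without them the numbers were 33 of 81 and 9 of 42.

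**Figure D4:**
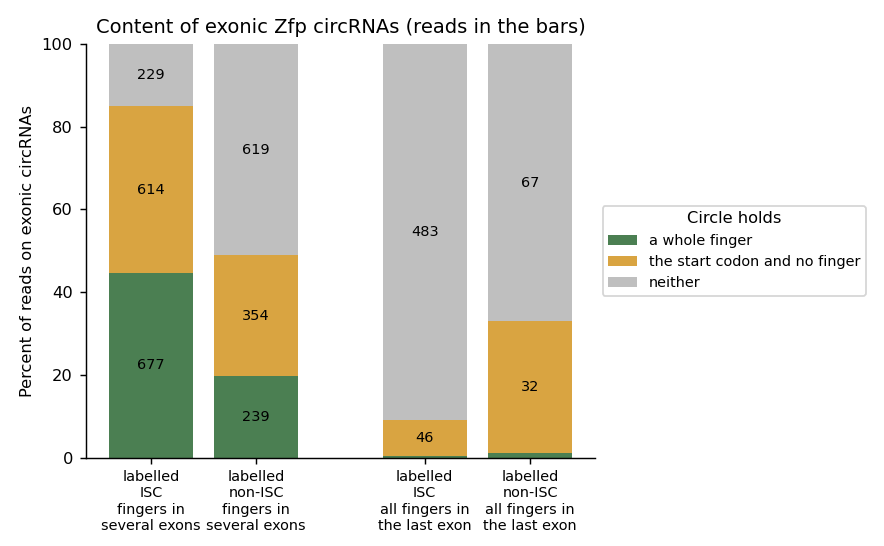
Percent of reads on exonic Zfp circRNAs whose circle holds a whole zinc finger (green), the start codon and no finger (yellow) or neither (grey), for host genes with fingers in several exons and with all fingers in the last exon, in each library; numbers are reads. The first class holds hosts with any finger outside the last exon. Finger-holding circles make up 44.5% and 19.7% of reads in the first class. In the second they are nearly left out by definition, as a last exon has no annotated donor.

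Exonic Zfp circles held the start codon more often than those of other hosts, 24.0% (16.9 to 32.3) against 12.8% for the label ISC and 29.1% (19.8 to 39.9) against 14.2% for the label non-ISC. They began at exon 2 in 37.1% (28.9 to 46.0) and 43.7% (33.1 to 54.7) of cases, against 26.9% and 29.0% of other exonic circRNAs. By reads these shares were 60.4% and 41.5%, against 47.3% and 41.2%. Circles with both ends on exon ends of 1 transcript were 59.7% (52.9 to 66.3) and 66.4% (57.6 to 74.4) of Zfp circRNAs, against 72.7% and 75.2% of others. By reads the order was not the same: these circles carried 84.4% and 92.5% of the Zfp reads, against 88.1% and 88.4% of others. Zfp circRNAs spanned a median of 3711 nt of the genome (quartiles 1181 and 9648) under the label ISC and of 6139 nt (1566 and 13600.5) under the other, against 4930 and 5637 nt for others. circRNAs of 1 host share their exons, so these intervals treat as independent what is only partly so.

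A set of Zfp circRNAs used a donor inside the last exon, where no splice donor is annotated. They were 30 of 347 listed Zfp circRNAs (8.65%, 5.91 to 12.1) against 744 of 31149 others (2.39%, 2.22 to 2.56). The Zfp644 leader is one of them. With 180 against 15 reads it had a ratio of 5.85 (3.45 to 10.7), and its donor lies 358 nt into exon 7, 168 nt past the coding end. The same donor was joined to upstream acceptors in a pair of further Zfp644 circles, with 0 against 5 and 1 against 0 reads.

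Of the 30, 11 had the donor within the array of fingers, in 9 hosts, with 17 against 11 reads in all. Of these donors, 3 stood 4 bases after a finger and 3 stood 13 bases into one, over 5 hosts. The 10 bases before each donor are in lower case and the 6 bases that follow it are in capitals, shown because near-identical letters recur across hosts.
Zfp62, chr11:49212695-49215945, 4 bases after a finger: atccatacagGTGAGA
Zfp157, chr5:138454980-138456748, 4 bases after a finger: attcatacagGTGAGA
Zfp157, chr5:138454980-138456916, 4 bases after a finger: atccatacagGTGAGA
Zfp418, chr7:7181233-7182411, 13 bases into a finger: agagaatgtgGTAAGT
Zfp52, chr17:21538573-21560801, 13 bases into a finger: aaagaatgtgGTAAGT
Zfp53, chr17:21504981-21508904, 13 bases into a finger: aaagaatgtgGTAAGT
Zfp62 had 8 reads against 0 on this circle, Zfp52 had 2 against 0, and Zfp418, Zfp53 and the first Zfp157 circle had 0 against 2, 0 against 1 and 0 against 2. The second Zfp157 circle had no junction reads in either library. Finger arrays repeat within and between genes, so a read can match more than 1 copy, and these circles are uncertain.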

How the data were processed

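The 2 intestinal libraries, 1 per sorted fraction, were analysed. Per the labels' protocols, ribosomal RNA was removed, linear RNA was digested with RNase R, and fragments near 200 bp were sequenced from both ends over 150 nt. Trimmomatic 0.36, FastQC and mm9 are named in the submitters' processing notes, and neither an aligner nor a circRNA caller is given in the sources used here. Per the file headers the authors deposited for each circRNA a count, an RPM value (that count scaled to 1000000 reads) and a junction count, the back-splice reads used here. The RPM values imply library totals of 52636694 and 72271995 reads.

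Coordinates fit GRCm38 exon ends (68.6% of Zfp starts and 67.4% of ends on exon ends, 0% when shifted by 1 nt), so GENCODE release M21 on GRCm38 was used, through Python 3.11.15 with pandas 2.3.3, numpy 2.4.6 and scipy 1.17.1. Of 127 host symbols, 126 matched, 2 of them through a synonym. Host reads were summed over circRNAs, and a missing entry counted as 0. Hosts and circRNAs were called at 10 or more reads over both libraries, a 2-fold or larger difference and an exact conditional (Clopper-Pearson) interval at 95% without 1. The rule was tested on simulated libraries with counting error only, so variation between libraries was not part of that test. Both mates can cross 1 junction, so intervals may be too narrow. Exon numbers follow the first basic coding transcript, by name, that has both ends. For Zfp148, Zfp827 and Zfp236 they follow the coding transcript of the gene that fits the most reads.

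The members, gene lists and rules were chosen with earlier results of these data known. Named are the 15 hosts and 10 circRNAs per library with the most reads, 10 called per direction, list members with at least 10 reads, the hosts with the most circRNAs, those whose leader differs, and the longest and shortest circRNAs. The grouping by finger-encoding exons and the donors inside last exons were chosen after seeing the data. A split by KRAB motif in RefSeq proteins was planned and not made. No batch is recorded in the labels, and library and group cannot be told apart.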

Additional observations from a re-analysis of the deposited data

Results flagged for a closer look

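The library labelled non-ISC lists 66 Zfp circRNAs with 0 junction reads, and 56 of these have a deposited count above 3, the limit used for 0 junction reads. They are flagged because the count column, which the main comparisons do not use, holds a signal where the junction column has none. Their median count was 13 and the highest was 225, for a circRNA of Zfp710. Of the 66, 16 had junction reads in the library labelled ISC and 50 had no entry there. The library labelled ISC has no Zfp entry with 0 junction reads. In the library labelled non-ISC, 131 of 197 listed Zfp circRNAs had junction reads, near 12202 of 18324 over all listed circRNAs. Entries with 0 junction reads are therefore a trait of that whole library and not of the family. The sources used here do not give how reads were assigned to that column.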

How the results depend on the processing

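No paired analysis was possible because the groups share only 1 replicate number. With library totals, 20 hosts and 30 circRNAs were higher and 4 circRNAs were lower, and the median log2 ratio was 2.05. The summed ratio became 2.37, that of several-exon hosts 1.93 and that of chromatin factors 1.37, all reversed. With median-ratio scaling the summed ratio was 1.04 and the median log2 ratio 0.85. The count column, scaled by junction-read totals, gave 37 hosts and 88 circRNAs higher, 38 and 74 lower and a median log2 ratio of -0.24. Zfp shares of the count totals themselves were 0.0818% and 0.200%. On the junction-read scale the column reversed Zfp207 (0.0798), Zfp276 (0.784), Zfp410 (1.5) and Zfp62 (0.831). It also put Zfp292 (0.669), Zfp609 (0.190), Zfp704 (0.593) and Zfp790 (0.819), which were not called, below 1. Ratios over count totals were not run. They would move every one of these ratios by the same factor, and the side of 1 on which Zfp410 lies depends on this choice. With reads halved and the minimum of 10 reads kept, 6 hosts and 7 circRNAs were higher, 4 and 4 lower, and the median log2 ratio was 0.69. Members with few reads then drop out by that minimum alone. Over circRNAs with reads in both libraries, 3 hosts and 5 circRNAs were higher, the summed ratio was 1.06 and the median log2 ratio 0.24. A minimum of 50 reads left 4 hosts and 5 circRNAs higher, 1 and 3 lower, and a median log2 ratio of 0.90. Without Zfp827 the summed ratio was 1.45, that of several-exon hosts 1.29 and that of chromatin factors 1.03. At 10 reads per circRNA, 80.9% had reads in both libraries, and 91.4% and 90.5% had both ends on 1 transcript. At 50 reads in each library, 2 of 4 hosts had the same leader. For all of these, the cause was not tested beyond what each setting leaves out. Sums of finger classes and chromatin factors under other settings were added after seeing the data. The KRAB split and its alternatives were not run. With 1 library per group, leaving out a library leaves no comparison, and depth limits most hosts, as 81 of 127 had 1 to 9 reads.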

Other observations

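Some Zfp circRNAs lay wholly inside 1 exon, and the length of a few of them was an exact multiple of the finger repeat. A finger with its linker is encoded by 84 nt (28 residues). Of 41 listed Zfp circRNAs inside 1 exon, 5 spanned an exact multiple of 84 nt (12.2%, 4.08 to 26.2), against 18 of 1514 of other hosts (1.19%, 0.706 to 1.87). They came from Zfp11 (504 nt), Zfp146 (168 nt), Zfp664 (420 nt), Zfp770 (1176 nt) and Zfp9 (252 nt). The Zfp770 circle is 14 repeats long but touches only 6 fingers, so its length does not stand for whole fingers. Zfp146 had 2 reads in the library labelled ISC, Zfp11 and Zfp664 had 1 each in the library labelled non-ISC, and Zfp770 and Zfp9 had no junction reads. Of the 5, 0 had both GT after the donor and AG before the acceptor, against 8 of all 41, as read in the spliced transcript. That reading covers the strand of the host gene only, and the entries name no strand. Zfp146 and Zfp664 have CT after the donor and AC before the acceptor, which is GT and AG on the opposite strand. A missing pair here thus need not mean missing splice signals. The Zfp770 circle begins at an annotated exon start. The bases read before its acceptor therefore belong to the preceding exon, and its acceptor was not judged. The same holds for others of the 41, Zfp418 and Zfp64 among them, so both numbers are uncertain. In the Zfp146 circle the same 10 bases stand at both ends, so the place of the junction cannot be fixed within them. This measure was chosen after seeing the data, and most of these circRNAs have too few reads to compare the libraries.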
